A study of Mus musculus with 4 samples.

Results

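Imprinted genes are expressed mainly or only from the copy inherited from 1 parent. The set described here holds 36 of them, from 16 clusters or single loci, and all 36 are among the 25239 gene symbols of the deposited count table. Members were chosen by gene symbol, as known imprinted genes, with the anterior to central differences of these same libraries already in view. Those differences are therefore given as a description with their errors, without p-values for the members, and nothing is read from how many members were called. RNA was sequenced from hindlimb bud cells of FVB mouse embryos at embryonic day 11.5. Every embryo carried a reporter at the H11 locus, in which the hsp68 promoter and the human form of a limb enhancer, ZRS(404G>A), drive mCherry, on an otherwise wild-type genotype. Anterior cells sorted as mCherry+ (2 libraries) were compared with central cells sorted as mCherry- (2 libraries). The position along the limb bud and the activity of the reporter therefore change together and cannot be told apart. The embryos are of a single strain and the table gives 1 count per gene, so the counts do not show which parental copy was read.

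Imprinting is set in the germ line by DNA methylation at control regions, which is kept in the embryo and decides which parental copy of the genes nearby is active. Many imprinted genes act on embryonic growth, and as a broad rule paternally expressed ones promote it and maternally expressed ones restrain it. A cluster often pairs protein-coding genes on 1 parental copy with a long noncoding RNA on the other. Expressed alleles are named below from general knowledge of the mouse, and for Osbpl5, Tssc4, Ppp1r9a, Copg2 and Gnas imprinting is limited to certain tissues or transcripts.

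Library totals ranged from 30080925 to 33257383 counts. Of the limb mesenchyme markers examined, 13 of 14 had counts in every library, and the exception was the forelimb factor Tbx5. They summed to 4675 and 4442 CPM in anterior and 2994 and 2684 CPM in central libraries, with 8 of 14 called higher and 3 lower in anterior cells. Beside each list of this paragraph, 10.7% of all 14610 tested genes were called higher and 12.3% lower in anterior cells. Red blood cell markers summed to 3295 and 8401 CPM in the anterior libraries and to 5.07 and 7.97 CPM in the central ones. All CPM here were scaled by TMM for library size and composition. The 4 adult globin symbols on that list were at 0 in every library. How reads of these genes were assigned was not tested, so these values do not show that their RNA was absent. All 7 tested genes of that list were called higher in anterior cells, as were 5 of 9 white blood cell markers (36.8 and 28.5 against 17.1 and 17.9 CPM summed). Several other lists were higher in central cells. Muscle precursor markers summed to 18.6 and 9.61 CPM in anterior and 238 and 216 CPM in central libraries, with Pax7 and Myog at 0 in anterior cells, and 8 of 8 were called lower there. Cartilage markers summed to 533 and 395 against 1810 and 1377 CPM, and connective tissue and tendon markers to 599.7 and 514 against 1800.0 and 1689 CPM. Called lower in anterior cells were 8 of 11 and 9 of 9 of them. Ectoderm markers summed to 14.1 and 13.7 against 61.3 and 210.0 CPM (10 of 12 called lower), and endothelial markers to 13.6 and 20.3 against 39.5 and 49.7 CPM (6 of 10 called lower). The part of these cell types in the results on imprinted genes was not tested. In such bulk samples, fewer cells of a type and less RNA per cell cannot be told apart.

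Most of the 36 imprinted genes described here were lower in anterior than in central cells, by widely different amounts. Of the 36, 35 passed the filter on low counts and Snrpn did not. At an edgeR adjusted p-value under 0.05, 24 of the 35 were called, where 22.9% of all 14610 tested genes were called. Lower calls numbered 20 (12.3% of all tested genes were called lower) and higher calls 4 (10.7% called higher). The anterior and central values did not overlap for 29 of the 35, as for 63.5% of all tested genes. The median log2 fold change of the 35, anterior minus central, was -0.43, against -0.01 over all tested genes. Among the 19 paternally expressed genes tested, 9 were called lower and 3 higher, with a median of -0.38. Among the 15 maternally expressed genes, 11 were called lower and 1 higher, with a median of -0.70. These 15 include Osbpl5, Tssc4, Ppp1r9a and Copg2, whose imprinting is limited to certain tissues, and -0.70 is the value of Osbpl5 itself. Called genes of both signs occurred among paternally and among maternally expressed genes.

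**Figure D1:**
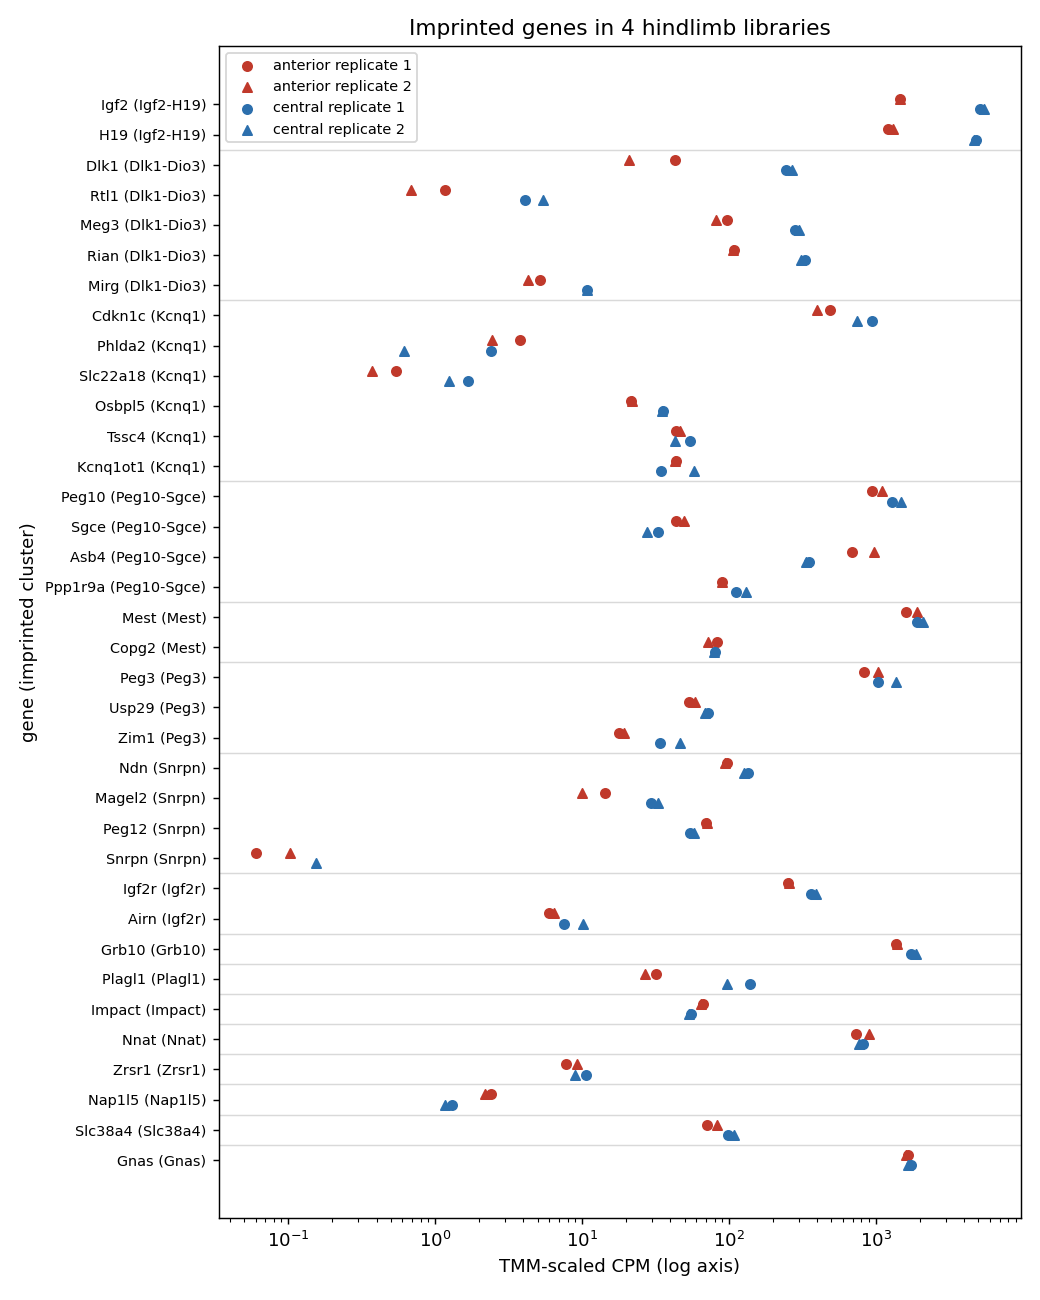
TMM-scaled CPM on a log axis for each imprinted gene, grouped by cluster. Red symbols are anterior and blue symbols central libraries, with circles for replicate 1 and triangles for replicate 2. Igf2, H19, Plagl1 and the genes of the Dlk1-Dio3 cluster are among those with wide gaps between colours, whereas Mest, Copg2, Nnat and Gnas lie close together. Snrpn has 0 counts in central replicate 1, which is not drawn.

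Igf2 and H19 lie within 91.3 kb on chromosome 7 (142575530 to 142666816, GRCm38, RefSeq) and were both far lower in anterior cells. Igf2, the paternally expressed growth factor of the embryo, measured 1469.7 and 1468.9 CPM in the anterior libraries and 5099.6 and 5465 CPM in the central ones. Anterior values were nearly equal and lay far below the central values. The log2 fold change was -1.85 ± 0.06 (SE). H19, the maternally expressed long noncoding RNA that shares enhancers with Igf2, measured 1204 and 1319 CPM in anterior and 4794 and 4677 CPM in central libraries, a log2 fold change of -1.91 ± 0.07 (SE). The ratio of H19 to Igf2 counts was 0.819 and 0.898 in anterior and 0.94 and 0.856 in central libraries. Those ranges overlap, so the RNAs of opposite parental copies differed between the populations by about the same factor. Together the pair took 0.268% and 0.272% of all counts in anterior libraries and 1.003% and 1.02% in central ones. The other 34 members together took 0.962% and 1.03% in anterior and 1.22% and 1.27% in central libraries. Mrpl23, the nearest tested protein-coding gene on the side of H19, was not called (0.15 ± 0.10 SE on the log2 scale, adjusted p = 0.332 by edgeR). On the side of Igf2 the nearest such gene not listed as imprinted, Trpm5, lies 404.7 kb away. It was called lower, on 14 to 156 counts a library (-2.77 ± 0.41 SE on the log2 scale, adjusted p = 0.00185 by edgeR).

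H19 contains a microRNA hairpin and Igf2 contains another, by RefSeq positions on GRCm38.p6. Their mature sequences are shown because these hosts were among the genes with the largest differences, and capitals mark the seed (bases 2 to 8). The libraries do not measure mature microRNAs. No seed is shared among the 4 sequences.
miR-675-5p (in H19): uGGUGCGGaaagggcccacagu
miR-675-3p (in H19): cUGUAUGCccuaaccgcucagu
miR-483-5p (in Igf2): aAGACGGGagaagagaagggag
miR-483-3p (in Igf2): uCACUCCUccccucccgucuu

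Igf2r, the maternally expressed receptor that takes up and degrades IGF2, measured 253 and 256 CPM in anterior and 365 and 391 CPM in central libraries. Its log2 fold change of -0.57 ± 0.06 (SE) was smaller in size than that of Igf2. Consequently the ratio of Igf2 to Igf2r counts was 5.82 and 5.74 in anterior against 13.97 in each central library. Airn, the paternally expressed antisense RNA needed to silence the paternal Igf2r copy, was at 5.97 and 6.41 CPM in anterior and 7.50 and 10.2 CPM in central libraries. Its log2 fold change was -0.51 ± 0.22 (SE). Airn did not pass the threshold, although it did without central replicate 1 (log2 fold change -0.71). Grb10, an adaptor that restrains signalling from insulin and IGF receptors and is maternally expressed outside the brain, measured 1383 and 1405 CPM against 1733 and 1883 CPM. The groups did not overlap, and the log2 fold change was -0.38 ± 0.07 (SE).

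The 5 members of the Dlk1-Dio3 cluster, read from either parental copy, were called lower in anterior cells (12.3% of all tested genes were called lower). Other genes of the stretch were tested too, and Dio3, the gene at its far end, was not called. The cluster members span 297 kb of chromosome 12 (109452485 to 109749458, GRCm38, RefSeq). Dlk1, the paternally expressed membrane protein related to Notch ligands, measured 42.8 and 21.0 CPM in anterior and 244 and 268 CPM in central libraries. Its log2 fold change of -2.996 ± 0.25 (SE) was the largest of the 35. The anterior libraries differed from each other, and each was far below both central libraries. Leaving out anterior replicate 1 gave -3.6 on that scale, and leaving out anterior replicate 2 gave -2.57. Rtl1, a paternally expressed gene derived from a retrotransposon, measured 1.17 and 0.682 CPM in anterior and 4.12 and 5.41 CPM in central libraries (log2 fold change -2.35 ± 0.38 SE). Of its exonic bases, 8.4% overlap microRNA genes, mostly on the opposite strand, and whether the counting used strand is not given in the sources used here.

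The maternally expressed noncoding RNAs of this cluster, which are transcribed in the same direction one after the other, were lower by smaller factors. Meg3 measured 97.2 and 81.7 CPM in anterior and 284 and 298 CPM in central libraries (log2 fold change -1.70 ± 0.09 SE). Rian, host of small nucleolar RNAs, measured 108.4 and 107.5 CPM against 331 and 309.7 CPM, a log2 fold change of -1.57 ± 0.07 (SE). Mirg, host of a microRNA cluster, measured 5.19 and 4.33 CPM against 10.8 and 10.9 CPM (log2 fold change -1.19 ± 0.20 SE). In each of the 3, the anterior values lay below the central ones. The ratio of Rian to Meg3 counts was 1.12 and 1.32 in anterior and 1.17 and 1.04 in central libraries, with overlapping ranges. That of Dlk1 to Meg3 was 0.44 and 0.257 in anterior and 0.858 and 0.897 in central libraries. Mirg to Meg3 went the other way, at 0.0534 and 0.053 against 0.038 and 0.0366. Dlk1 thus differed by more, and Mirg by less, than Meg3, as a description of 2 libraries a group.

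Promoter windows of 300 bases (250 before to 50 after the start) are shown for Dlk1 and Meg3, which are read from opposite parental copies and were both lower. They come from RefSeq on GRCm38.p6, plus strand, and capitals mark CG dinucleotides, where DNA methylation occurs. The Dlk1 window (chr12:109452573-109452872) holds 9 CG and the Meg3 window (chr12:109540746-109541045) holds 13. TGCCGC, the core of the motif that the imprint-keeping protein ZFP57 reads, was searched on both strands, and its letters occur 1 time in the Meg3 window. They are not in the Dlk1 window.
Dlk1: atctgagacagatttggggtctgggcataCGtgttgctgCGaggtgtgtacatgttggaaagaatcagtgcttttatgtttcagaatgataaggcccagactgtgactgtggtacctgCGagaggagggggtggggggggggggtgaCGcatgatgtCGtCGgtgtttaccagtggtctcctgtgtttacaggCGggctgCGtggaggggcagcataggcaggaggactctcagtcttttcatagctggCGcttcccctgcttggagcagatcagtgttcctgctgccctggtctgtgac
Meg3: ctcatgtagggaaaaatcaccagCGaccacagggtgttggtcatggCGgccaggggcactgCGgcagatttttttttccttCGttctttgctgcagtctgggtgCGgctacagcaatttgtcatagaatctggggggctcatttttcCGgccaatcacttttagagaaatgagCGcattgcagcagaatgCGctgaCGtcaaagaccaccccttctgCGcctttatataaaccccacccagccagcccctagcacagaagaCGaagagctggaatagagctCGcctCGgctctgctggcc

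By RefSeq spans, 10 microRNA hairpins lie within Mirg and 3 within Rian on the same strand, and 13 lie within Rtl1 on the opposite strand. Examples are shown because their hosts or host strands lie in the cluster with the largest differences. Capitals mark the seed, and mature microRNAs were not measured.
miR-370-3p (in Rian): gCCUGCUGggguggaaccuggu
miR-410-3p (in Mirg): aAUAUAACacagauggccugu
miR-127-3p (opposite Rtl1): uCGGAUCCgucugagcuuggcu

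The nearest tested protein-coding genes that are not listed as imprinted were Wdr25, 424 kb before Dlk1, and Ppp2r5c, 698 kb after Mirg. They differed by -0.24 ± 0.25 and -0.01 ± 0.07 (SE) on the log2 scale, and neither was called (adjusted p = 0.548 and 0.946 by edgeR). Of other imprinted genes in the stretch, Begain was at -0.13 ± 0.22 (SE) and Dio3 at -1.58 ± 0.78 (SE, 2 to 18 counts a library), and neither was called (adjusted p = 0.737 and 0.188 by edgeR).

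**Figure D2:**
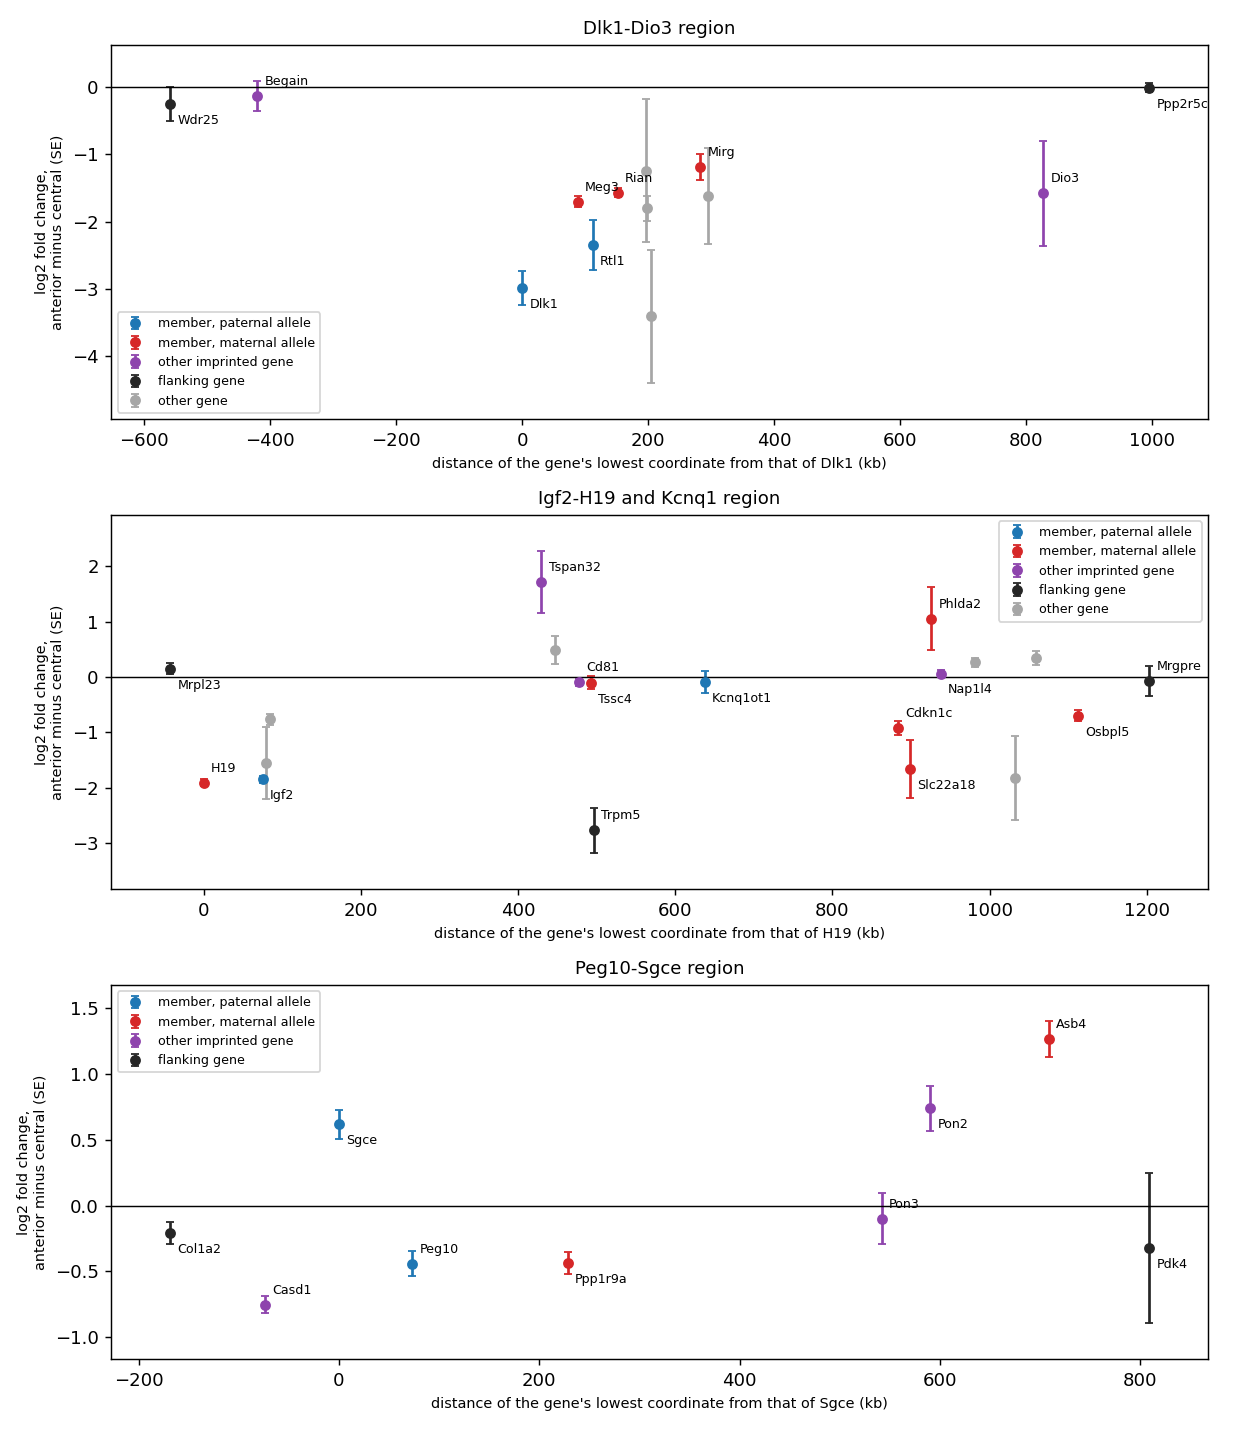
Log2 fold change (anterior minus central, bars SE) of every tested gene against its distance in kb from an anchor gene, for the Dlk1-Dio3, the Igf2-H19 with Kcnq1, and the Peg10-Sgce regions. Colours separate paternally and maternally expressed members, other imprinted genes, flanking genes (Trpm5, in black, lies next to Tssc4) and further genes. In the top panel the 5 members lie between -2.996 and -1.19 while Wdr25 and Ppp2r5c lie near 0, and in the bottom panel Asb4 and Sgce lie above 0 and Peg10 and Ppp1r9a below.

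The Kcnq1 cluster, which follows Igf2 on chromosome 7 (members at 143068416 to 143757008, GRCm38, RefSeq), held differences of both signs. Cdkn1c, the maternally expressed inhibitor of cyclin-dependent kinases p57, measured 492 and 397 CPM in anterior and 936 and 742 CPM in central libraries. Its log2 fold change was -0.92 ± 0.13 (SE), and every anterior value was below every central one. Osbpl5, a lipid transfer protein, measured 21.7 and 21.8 CPM against 35.8 and 34.8 CPM (log2 fold change -0.70 ± 0.10 SE). Slc22a18, a membrane transporter, was called lower at 0.54 and 0.375 against 1.69 and 1.24 CPM. It rests on 11 to 52 counts a library (log2 fold change -1.66 ± 0.52 SE), and the call was lost with the replicate block, with limma-voom, with the DESeq2 Wald test and with library size alone, and without any 1 of the 4 libraries.

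Phlda2, a maternally expressed gene that restrains placental growth, had the opposite sign, with 3.78 and 2.45 CPM in anterior and 2.40 and 0.618 CPM in central libraries. It was not called (log2 fold change 1.05 ± 0.57 SE), and its central libraries differed from each other by more than its anterior ones. Without central replicate 1 it was called, at 2.33 on the log2 scale, while without central replicate 2 it was at 0.38 and not called. Tssc4, a spliceosome assembly factor, measured 43.8 and 46.4 against 54.2 and 42.8 CPM, with overlapping groups. Of its exonic bases, 11.9% overlap Trpm5 on the opposite strand. Kcnq1ot1, the paternally expressed long noncoding RNA that silences the cluster on that copy, measured 43.6 and 43.1 CPM in anterior and 34.3 and 57.8 CPM in central libraries. The central libraries lay on either side of the anterior ones. Without central replicate 1 it was called lower (-0.41 on the log2 scale) and without central replicate 2 it was called higher (0.34).

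The Peg10-Sgce cluster on chromosome 6 (4674350 to 5433022, GRCm38, RefSeq) held both the largest rise and falls. Asb4, a maternally expressed gene encoding an ankyrin repeat and SOCS box protein, measured 688 and 968 CPM in anterior and 352 and 337 CPM in central libraries. Its log2 fold change of 1.27 ± 0.14 (SE) was the largest rise among the 35. Sgce, the paternally expressed epsilon-sarcoglycan, measured 43.4 and 49.5 against 32.8 and 27.8 CPM (log2 fold change 0.62 ± 0.11 SE). Peg10, a paternally expressed gene derived from a retrotransposon, measured 942 and 1099 against 1286 and 1487 CPM (log2 fold change -0.44 ± 0.09 SE). The starts of Peg10 and Sgce lie 102 bp apart, on opposite strands, yet their differences had opposite signs. The ratio of Peg10 to Sgce counts was 21.7 and 22.2 in anterior and 39.2 and 53.5 in central libraries. Ppp1r9a, an actin-binding regulator of protein phosphatase, measured 90.5 and 90.4 against 113 and 132 CPM (log2 fold change -0.43 ± 0.09 SE). Without anterior replicate 1 Peg10 was no longer called (-0.33 on the log2 scale).

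The most upstream promoter window of Asb4, as for each gene here, is shown because it belongs to the largest rise. It lies at chr6:5383136-5383435 (RefSeq, GRCm38.p6, plus strand) and holds 6 CG dinucleotides, in capitals, with a GC content of 40.3% and no TGCCGC.
Asb4: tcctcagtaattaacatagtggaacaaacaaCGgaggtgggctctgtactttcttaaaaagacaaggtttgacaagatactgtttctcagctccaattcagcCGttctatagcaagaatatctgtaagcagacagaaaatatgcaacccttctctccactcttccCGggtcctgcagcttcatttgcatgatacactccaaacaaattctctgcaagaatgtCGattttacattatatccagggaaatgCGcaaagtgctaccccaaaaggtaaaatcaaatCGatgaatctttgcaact

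Plagl1, a paternally expressed zinc finger transcription factor that halts the cell cycle and regulates other imprinted genes, was lower in anterior cells. It lies at 13090832 to 13131694 on chromosome 10 (GRCm38, RefSeq). Plagl1 measured 32.0 and 27.0 CPM in anterior and 140.3 and 96.9 CPM in central libraries. Central replicate 1 was the highest, and the groups were far apart. The log2 fold change was -2.01 ± 0.17 (SE). Neither neighbour was called: Sf3b5 was at 0.23 ± 0.08 and Ltv1 at 0.25 ± 0.11 (SE) on the log2 scale (adjusted p = 0.0826 and 0.151 by edgeR). The promoter window below (chr10:13090582-13090881, RefSeq, GRCm38.p6, plus strand) is shown for contrast with that of Asb4, since it holds 26 CG dinucleotides, again in capitals, has a GC content of 70.7% and holds TGCCGC 1 time.
Plagl1: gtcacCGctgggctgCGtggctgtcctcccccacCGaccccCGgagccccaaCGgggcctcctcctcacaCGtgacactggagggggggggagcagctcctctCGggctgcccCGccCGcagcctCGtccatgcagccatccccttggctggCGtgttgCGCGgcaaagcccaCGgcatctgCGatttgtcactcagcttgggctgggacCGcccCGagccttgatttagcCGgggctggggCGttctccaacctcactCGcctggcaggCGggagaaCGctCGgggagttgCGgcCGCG

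Promoter windows were found for 30 of the 36 genes (49 windows), and none for H19, Rtl1, Cdkn1c, Peg10, Sgce and Impact. TGCCGC on either strand occurs in 12 of the 49 (24.5%), against 11.6% of all 32851 windows and 18.8% of those of tested genes. Windows of the same gene can overlap, as for Mest, where the same motif sites are counted in more than 1 window. The median number of CG per window is 11, against 7 over all windows and 20 over those of tested genes. Paternally and maternally expressed members had the motif in 26.9% and 26.3% of their windows. These are descriptions of sequence and not of binding or methylation.

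**Figure D3:**
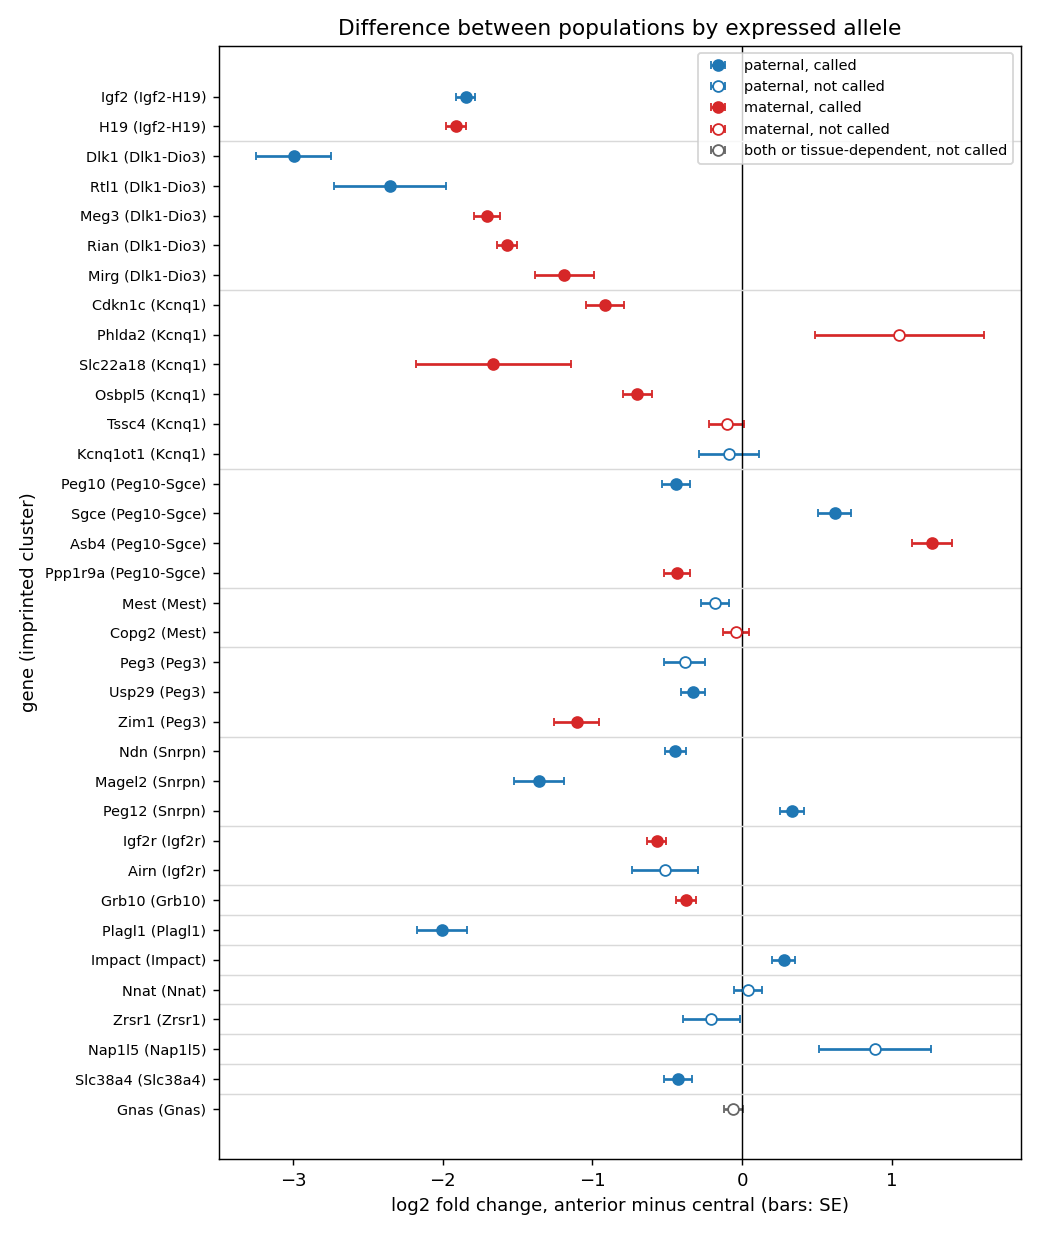
Log2 fold change of the 35 tested imprinted genes, anterior minus central, with SE bars. Blue points are paternally and red points maternally expressed genes, grey is Gnas, and filled points were called. Calls below 0 occur on either allele, and the 4 calls above 0 are Sgce, Asb4, Peg12 and Impact.

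In the Peg3 cluster on chromosome 7 (6674444 to 6967220, GRCm38, RefSeq) all 3 genes had negative log2 fold changes. Peg3, a paternally expressed zinc finger gene with roles in growth and maternal behaviour, measured 826 and 1032 CPM in anterior and 1043 and 1380.3 CPM in central libraries. The highest anterior and lowest central value nearly touched, and it was not called (log2 fold change -0.38 ± 0.14 SE), although it was called with the replicate block (-0.38), with no filter beyond 1 count (-0.38), without anterior replicate 2 (-0.55) and without central replicate 1 (-0.57). It was closer to 0, and not called, without anterior replicate 1 (-0.23) and without central replicate 2 (-0.17). Usp29, whose start lies 97 bp from that of Peg3 on the opposite strand, measured 53.5 and 58.5 against 71.9 and 68.7 CPM (log2 fold change -0.33 ± 0.08 SE). It was not called without anterior replicate 1 (-0.26). Zim1, the maternally expressed zinc finger gene next to Peg3, measured 17.8 and 19.4 against 33.8 and 46.2 CPM (log2 fold change -1.11 ± 0.15 SE). The ratio of Peg3 to Zim1 counts was 46.5 and 53.1 in anterior and 30.9 and 29.9 in central libraries.

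Paternally expressed genes of the Snrpn domain, the counterpart of the human Prader-Willi region, differed in sign. The MAGE family gene Magel2 measured 14.4 and 10.02 CPM in anterior and 29.5 and 33.2 CPM in central libraries (log2 fold change -1.36 ± 0.17 SE). Ndn, which encodes the related growth regulator necdin, measured 97.3 and 94.7 against 135 and 126 CPM (log2 fold change -0.45 ± 0.07 SE). Peg12, a Frat family gene of Wnt signalling, was called higher at 70.1 and 71.1 against 54.3 and 57.7 CPM, by 0.33 ± 0.08 (SE) on the log2 scale. That call was lost without anterior replicate 1 (0.35) and without anterior replicate 2 (0.33). Snrpn, which encodes a protein of small nuclear ribonucleoproteins, had 2 and 3 counts in anterior and 0 and 5 in central libraries and was not tested. It is made from a transcript shared with Snurf, which was at 0 in every library, and how reads of that transcript were assigned was not tested. No fold is given for Snrpn, since its values lie about the floor of 3 counts.

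Single loci fell on both sides of 0. Impact, a paternally expressed regulator of translation under amino acid shortage, was called higher at 67.2 and 64.9 against 54.9 and 53.9 CPM (log2 fold change 0.28 ± 0.08 SE). The call was lost with library size alone (0.25), without anterior replicate 1 (0.26), without anterior replicate 2 (0.31) and without central replicate 2 (0.27). Slc38a4, a paternally expressed amino acid transporter, was called lower at 70.9 and 82.8 against 98.7 and 108 CPM (log2 fold change -0.43 ± 0.09 SE), but not without anterior replicate 1 (-0.32). Nap1l5, a paternally expressed retrogene of the nucleosome assembly protein family, measured 2.40 and 2.18 against 1.30 and 1.17 CPM. It rests on 38 to 80 counts a library and was not called (log2 fold change 0.89 ± 0.38 SE).

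The remaining 5 genes had values close to each other in the 2 populations. Mest, a paternally expressed hydrolase of mesoderm, measured 1603 and 1925 CPM in anterior and 1908 and 2094 CPM in central libraries, with overlapping groups (log2 fold change -0.18 ± 0.09 SE). It was called lower without central replicate 1 (-0.25). Copg2, a coat protein of vesicles whose 3′ end overlaps that of Mest, measured 82.7 and 71.9 against 80.1 and 79.1 CPM (log2 fold change -0.04 ± 0.09 SE). The shared stretch is 23.1% of the exonic bases of Mest and 17.8% of those of Copg2. Nnat, a paternally expressed membrane proteolipid, measured 734 and 898 against 815 and 773 CPM (log2 fold change 0.04 ± 0.09 SE). Gnas, the stimulatory G protein alpha subunit with several imprinted transcripts, measured 1646 and 1605 against 1729 and 1656 CPM (log2 fold change -0.06 ± 0.06 SE), summed over those transcripts. Zrsr1, a paternally expressed retrogene of a splicing factor, measured 7.77 and 9.27 against 10.7 and 8.99 CPM (log2 fold change -0.21 ± 0.19 SE). None was called, which does not show that they were equal.

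Levels of different genes were set side by side as CPM per kb of exon (RPKM), with exon lengths from GENCODE M21, which may not be the annotation behind the counts. In central cells H19 was highest at 1949 and 1901 RPKM, followed by Igf2 at 891 and 955, Mest at 484 and 531, Nnat at 446 and 423, and Cdkn1c at 459 and 364. Mest lay above Nnat in each central library, and the values of Nnat fell within those of Cdkn1c. In anterior cells H19 was at 489 and 536 RPKM, Mest at 406 and 488, and Nnat at 402 and 491. The range of Nnat overlapped those of H19 and Mest, and H19 lay just above Mest. Igf2 followed at 257 in each, then Cdkn1c at 241 and 195 and Asb4 at 175 and 246, the last 2 with overlapping ranges. By mean RPKM, Igf2 thus stood next to H19 in central cells and below H19, Mest and Nnat in anterior cells.

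**Figure D4:**
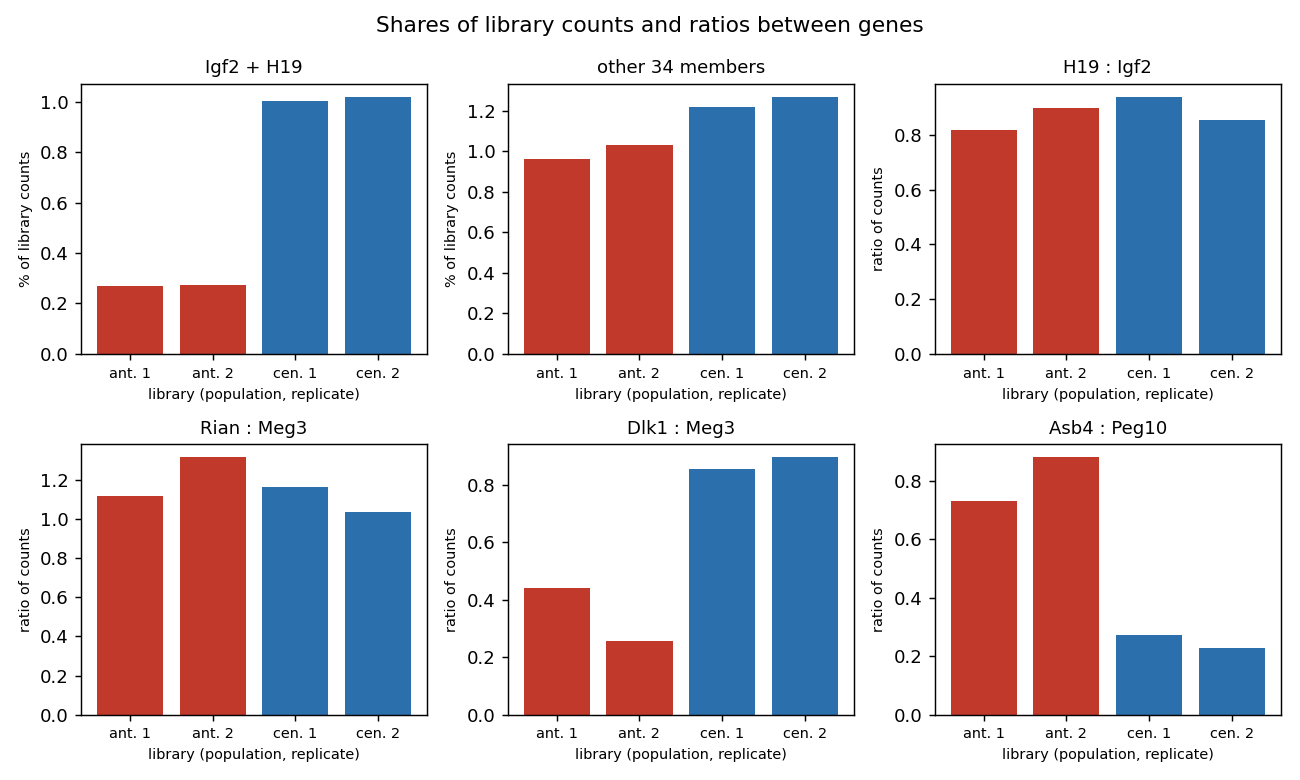
Bars for each library (red anterior, blue central, axes from 0) of the percent of all counts taken by Igf2 with H19 and by the other 34 genes, and of the ratio of counts between genes of 1 cluster. Igf2 with H19 took 0.268% and 0.272% in anterior and 1.003% and 1.02% in central libraries, while H19 to Igf2 and Rian to Meg3 overlapped between populations. Dlk1 to Meg3 was lower, and Asb4 to Peg10 higher (0.731 and 0.881 against 0.273 and 0.227), in anterior libraries.

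Further imprinted genes that are not among the 36 were followed as a list of 47, of which 33 were tested. This list too was drawn up with results of these libraries known, so adjusted p-values of its genes are descriptions. Whether the genes of this list are imprinted in hindlimb bud cells was not tested. Of the 33, 12 were called lower and 3 higher, with a median log2 fold change of -0.09. Over all tested genes, 12.3% were called lower and 10.7% higher. The largest falls at a mean of at least 5 CPM were in Cdh15, the muscle cadherin, from 12.7 ± 2.82 to 0.264 ± 0.204 CPM (SD, n = 2; -5.61 ± 0.42 SE on the log2 scale, adjusted p = 3.98e-05 by edgeR), and in Zdbf2, a paternally expressed gene, from 55.4 ± 5.84 to 24.9 ± 0.29 CPM (-1.16 ± 0.10 SE, adjusted p = 9.69e-05). Peg13, a paternally expressed noncoding RNA, Mkrn3, a paternally expressed ring finger gene, Casd1, next to Sgce, and Gab1, an adaptor of growth factor receptors, had log2 fold changes of -0.99, -0.77, -0.75 and -0.44. The 3 rises were Dlx5, a homeobox gene of limb and skeleton (4.79 ± 0.17 to 24.8 ± 1.64 CPM; 2.37 ± 0.15 SE on the log2 scale, adjusted p = 1.35e-05 by edgeR), Pon2, an antioxidant lactonase (0.74), and Dhcr7, a cholesterol synthesis enzyme (0.31). Fewer of the list were called without anterior replicate 2 and without anterior replicate 1, and the same held over all tested genes. Cdh15 was called in each fit, at -4.94 on the log2 scale without anterior replicate 1 and -6.68 without anterior replicate 2. Its anterior libraries held 4 and 12 counts, near the floor of 3 counts, so the size of its fall is uncertain. It reached a mean of 5 CPM only through the central libraries (453 and 347 counts). Of the named genes, Mkrn3 was called in neither fit, nor without central replicate 2, and Gab1 and Dhcr7 not without anterior replicate 2.

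Among genes that set, keep or read imprints, called log2 fold changes lay between -0.31 and 0.59. Of 20 listed, 17 were tested, and 4 were called higher and 1 lower in anterior cells, where 10.7% and 12.3% of all tested genes were called. Uhrf1, which brings the maintenance methyltransferase to replicating DNA, measured 574 ± 18.8 against 435 ± 38.5 CPM (SD, n = 2; 0.40 ± 0.08 SE on the log2 scale, adjusted p = 0.00598 by edgeR). Dnmt3b, a de novo methyltransferase, measured 65.4 ± 3.87 against 43.5 ± 3.73 CPM (0.59 ± 0.09 SE, adjusted p = 0.00264 by edgeR). Hells, a chromatin remodeller needed for DNA methylation, and Ctcf, which binds the control region between Igf2 and H19, had log2 fold changes of 0.32 and 0.24 (adjusted p = 0.00711 and 0.0208 by edgeR). Zfp57, which keeps methylation at imprinted control regions, was lower at 65.5 ± 0.18 against 81.0 ± 3.86 CPM (-0.31 ± 0.08 SE, adjusted p = 0.0205 by edgeR). Dnmt1, the maintenance methyltransferase itself, and Trim28, the partner of ZFP57, were not called (adjusted p = 0.151 and 0.0563 by edgeR). Without anterior replicate 1 the calls of Zfp57 and Ctcf were lost. Without anterior replicate 2 those of Zfp57, Ctcf and Hells were lost. Fewer of all tested genes were called in these fits too.

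The nearest tested protein-coding gene on each side of every cluster gave 31 genes, of which 3 were called higher, 5 lower and 23 not. Of all tested genes, 22.9% were called, 10.7% higher and 12.3% lower. Those named at a mean of at least 5 CPM were Map3k4 near Igf2r (0.36), Ctnnbl1 near Nnat (0.26) and Abcg2 near Nap1l5 (0.46), called higher, and Npepl1 near Gnas (-0.86), Cep41 near Mest (-0.69) and Zfp521 near Impact (-0.48), called lower, all as log2 fold changes. The median over the 31 was -0.09. Cep41 and Npepl1 were called lower beside Mest and Gnas, which were not called. Without anterior replicate 2 none of Map3k4, Ctnnbl1 and Abcg2 passed. Fewer of the flanking genes, and fewer of all tested genes, were called in that fit. Ctnnbl1 also did not pass without anterior replicate 1 or central replicate 1.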

How the data were processed

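Per the submitters' processing notes, the tools STAR 2.7.9a, HTSeq and DESeq2 and the build mm10 were used, with no role or order given; the annotation and strand setting are not given in the sources used here. The authors deposited whole-number read counts per gene symbol, not normalized, for 4 libraries. Even numbers made up 72.8% to 75.6% of counts from 1 to 10, a pattern that arises when both mates of a pair are counted, so halved counts were also run. The counts were analysed with edgeR 4.0.16 (R 4.3.3): default filterByExpr, TMM, quasi-likelihood F test, Benjamini-Hochberg adjustment over all 14610 tested genes, threshold 0.05, 2 residual degrees of freedom. SE is the absolute log2 fold change divided by the square root of F. A floor of 3 counts corresponds to 0.0899 to 0.102 CPM. The script was tested on simulated data.

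Group and replicate come from the sample titles. The labels do not say whether replicates are separate embryos or pools, so errors may measure technical spread. The members and lists were chosen with earlier results of these data known. Adjusted p-values printed for listed and neighbouring genes are therefore descriptions and not independent support. All 36 members are accounted for; from the other imprinted and flanking genes, called ones with a mean of at least 5 CPM were named (up to 6 each way), and from the imprint regulators the called ones. Dnmt1, Trim28 and the neighbours printed beside single clusters were named after their values were seen. Flanking genes, positions and promoters come from RefSeq (GRCm38.p6, the same assembly as mm10). Alternatives were DESeq2 size factors and Wald test (DESeq2 1.42.0), library size alone, limma-voom (limma 3.58.1), 2 other count filters, the replicate block, halved counts, removal of blood genes and leaving out each library.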

Additional observations from a re-analysis of the deposited data

How the results depend on the processing

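Of the 35 tested imprinted genes, 32 had the same sign and the same call under every alternative that kept all 4 libraries, the exceptions being Slc22a18, Impact and Peg3; Slc22a18 was not tested at a mean count of at least 50. The called number was 24 and ranged from 22 (library size alone) to 25 (no filter beyond 1 count), and was 24 with the replicate block, 23 of them shared, where Slc22a18 was lost and Peg3 gained. With the blood lists removed and with halved counts it was 24. Of all tested genes, 3351 of 14610 were called in the main fit. Library size alone gave 3122 of 14610, and no filter beyond 1 count gave 3864 of 18700. The replicate number is the only sign of pairing, and the replicate differences of the populations correlated at 0.064 across genes, so the numbers were not taken as pairs. Library size alone moved the median of the members to -0.46 (all tested genes -0.04).

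With 1 library left out, the lone library is assumed to vary like the other group. Fewest members were then called without anterior replicate 1 and most without central replicate 1. Over all tested genes, calls were fewest without anterior replicate 2 and most without central replicate 2. Leaving out an anterior replicate also left fewer members called higher than in the main fit. The median ranged from -0.539 to -0.332 over all members, from -0.422 to -0.263 over paternally expressed ones and from -0.719 to -0.679 over maternally expressed ones. Other imprinted genes called ranged from 8 to 13, imprint regulators from 2 to 7 and flanking genes from 5 to 9. Signs reversed in genes near 0: without anterior replicate 2, Copg2 (0.0607, against -0.143 without anterior replicate 1) and Nnat (-0.107, against 0.181); without central replicate 1, Tssc4 (0.0798, against -0.262 without central replicate 2); without central replicate 2, Kcnq1ot1 (0.341, against -0.412 without central replicate 1). The cause was not tested. With 2 libraries a group, differences near the threshold, and genes with few counts such as Slc22a18, Phlda2 and Nap1l5, are the least certain.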

Other observations

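Other RNAs read from within the clusters, chosen after their values were seen, did not all follow their neighbours. Because of that choice, their adjusted p-values are descriptions and support no claim. AF357359, a small nucleolar RNA gene inside the span of Rian, had 125 and 114 counts in anterior and 395 and 448 in central libraries. Its log2 fold change was -1.80 ± 0.19 (SE, adjusted p = 0.000242 by edgeR), beside -1.70 for Meg3 and -1.57 for Rian. By GENCODE M21, DQ267100 shares exonic bases with Rian, and AF357359 is not among the genes that do. Whether reads of either were shared with Rian was not tested. The other 3 tested genes inside that cluster also had negative values, DQ267102 (-3.41 ± 0.99 SE, adjusted p = 0.0386) called and DQ267100 (-1.24, 0.455) and Mir3072 (-1.63, 0.142) not called. DQ267102 had 4 and 0 counts in anterior and 16 and 29 in central libraries, so its anterior values lie about the floor of 3 counts. Igf2os, antisense to Igf2, was lower by less than Igf2 (-0.76 ± 0.10 SE against -1.85 ± 0.06 on the log2 scale; adjusted p = 0.00091 by edgeR for Igf2os), at 37.3 ± 2.75 against 63.2 ± 5.84 CPM (SD, n = 2); the difference between these changes was not tested, and 1.71% of the exonic bases of Igf2 overlap it. Snhg14, the long noncoding RNA downstream of Snrpn, measured 21.6 ± 0.29 CPM in anterior and 14.5 ± 1.01 CPM in central libraries and rose by 0.57 ± 0.12 SE on the log2 scale (adjusted p = 0.0119 by edgeR), in the same direction as Peg12 of that domain and opposite to Ndn and Magel2. Trpm5, next to Tssc4, had 25 and 14 counts against 156 and 110 (-2.77 ± 0.41 SE on the log2 scale, adjusted p = 0.00185 by edgeR), and Cars, in the Kcnq1 cluster, was higher by 0.27 ± 0.08 (SE, adjusted p = 0.0397 by edgeR).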
